A study of Rattus norvegicus with 2 samples.

Results

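The CC chemokine genes described here are Ccl2, Ccl3, Ccl4, Ccl5, Ccl7, Ccl19, Ccl20 and Ccl22, compared between HIP rats, transgenic for the human form of islet amyloid polypeptide (IAPP), and nondiabetic wild-type rats. Every gene spot that carries one of these 8 names on the array design was taken, whatever its signal, which gave 19 of 43379 gene spots and 10 of 41012 gene probes, for 8 of 35535 gene or transcript names on the array. Ccl2 had 1 probe printed in 10 spots, Ccl7 and Ccl22 had 2 probes each, and the other 5 genes had 1 probe in 1 spot. There were 2 HIP and 2 wild-type extracts, whose amplified cDNA shared 2 whole-genome rat arrays, HIP labelled with Cy5 and wild type with Cy3 on both, so dye and genotype cannot be told apart. HIP 1 and wild type 1 shared array 1, and HIP 2 and wild type 2 shared array 2. The labels give the genotype of the animals and describe the material only as cell samples. No tissue, age or transgene promoter is named, and the labels are silent on whether each extract is a different animal. The error given with each mean ratio is therefore the spread between 2 arrays, which may be technical.

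CC chemokines are small secreted proteins, named for a pair of adjacent cysteines, that draw leukocytes along a gradient by binding G protein-coupled receptors on their surface. Ccl2 and Ccl7 attract monocytes through Ccr2. Ccl3, Ccl4 and Ccl5 attract monocytes, macrophages and T cells, and Ccr1 is a receptor of Ccl3 and Ccl5. Ccl19 guides dendritic cells and T cells to lymphoid tissue through Ccr7, Ccl20 binds Ccr6 and Ccl22 binds Ccr4. In pancreatic islets, beta cells and resident macrophages are known sources of such ligands under inflammatory stimulation, which acts on many of these genes through the transcription factor NF-kB.

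The RefSeq promoter table of the GRCr8 build held 4 of the 8 genes, Ccl7, Ccl19, Ccl20 and Ccl22. Over the 250 bases before the transcription start, the NF-kB consensus motif, searched on both strands, had a match in 1 of these 4 and in 3.54% of all 33469 promoters of the table. The letters TATAAA, searched on the gene strand, also had a match in 1 of 4, against 8.06% of all promoters. The promoter of Ccl20 is shown because it holds the NF-kB match, that of Ccl7 because it holds TATAAA, and that of Ccl22 because this gene had the highest ratio below. The NF-kB match of Ccl20 is on the opposite strand and starts 89 bases before the start, and that of Ccl7 to TATAAA starts 34 bases before it. Matches are in capitals, each sequence runs 5′ to 3′ on the gene strand and ends at the base before the start, and a match says nothing about whether a factor binds there.
Ccl7 (chr10:67513845-67514094, + strand): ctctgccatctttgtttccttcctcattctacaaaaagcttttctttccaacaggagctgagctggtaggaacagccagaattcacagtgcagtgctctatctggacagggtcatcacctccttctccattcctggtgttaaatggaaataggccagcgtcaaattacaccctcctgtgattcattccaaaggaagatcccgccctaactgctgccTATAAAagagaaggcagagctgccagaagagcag
Ccl20 (chr9:91836909-91837158, + strand): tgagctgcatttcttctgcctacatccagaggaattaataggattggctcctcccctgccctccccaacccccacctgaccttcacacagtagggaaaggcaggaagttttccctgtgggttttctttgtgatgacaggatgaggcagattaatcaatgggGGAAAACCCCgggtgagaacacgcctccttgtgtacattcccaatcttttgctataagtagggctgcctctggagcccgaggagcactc
Ccl22 (chr19:10270360-10270609, - strand): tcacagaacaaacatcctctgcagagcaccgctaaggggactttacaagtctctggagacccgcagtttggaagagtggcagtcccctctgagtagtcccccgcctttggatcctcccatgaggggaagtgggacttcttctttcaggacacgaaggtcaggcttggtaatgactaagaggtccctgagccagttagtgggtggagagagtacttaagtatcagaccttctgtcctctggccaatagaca

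Signals below are the scanner software's processed intensities, which are background-subtracted and dye-normalized. Ratios are log2 values of HIP over wild type after normexp background correction and loess, so a positive ratio is higher in HIP, and the 2 scales are not interchangeable for dim spots. The software called 85.0% of gene spots well above background in HIP 1, 84.1% in HIP 2, 83.5% in wild type 1 and 73.6% in wild type 2, and 0 of 153 negative control spots in any extract. Probes entered the test where either dye was well above background on each of the 2 arrays, which held for 9 of the 10 member probes and for 33652 probes in all. Probes differ in how they bind, so signals of different probes are set against each other only for choices. These are a gene's probe in a list, the listed genes named and the nearest gene by level. Sums of marker lists hold the same probes in every extract.

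Ccl3 was lower in HIP on both arrays and Ccl22 was 4.03-fold higher in HIP by one of its probes, while its second probe was not. None of the 9 tested probes passed the test (limma, Benjamini-Hochberg adjustment over all probes, adjusted p of 0.05), and 0% of the 33652 probes passed in either direction. At an unadjusted threshold of 0.05, 2 of the 9 passed, those of Ccl3 and the first of Ccl22, against 3.27% of all probes. Both arrays gave a higher level in HIP for 3 of the 9 (26.9% of all probes) and a lower one for 3 (22.9%), and the arrays pointed different ways for 3 (50.2%). A ratio of at least 2-fold on both arrays was found higher in HIP for 1 of the 9 (2.57% of all probes) and lower for 1 (2.44% of all probes). Higher probes made up 51.3% of all such probes, 73.0% when each array was centred on its median in place of loess, and 98.1% without normalization, which leaves the median of all probes at 0.78 on array 1 and 1.19 on array 2. The median of the 9 mean ratios was -0.05, and that of all probes tested was 0.02.

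**Figure D1:**
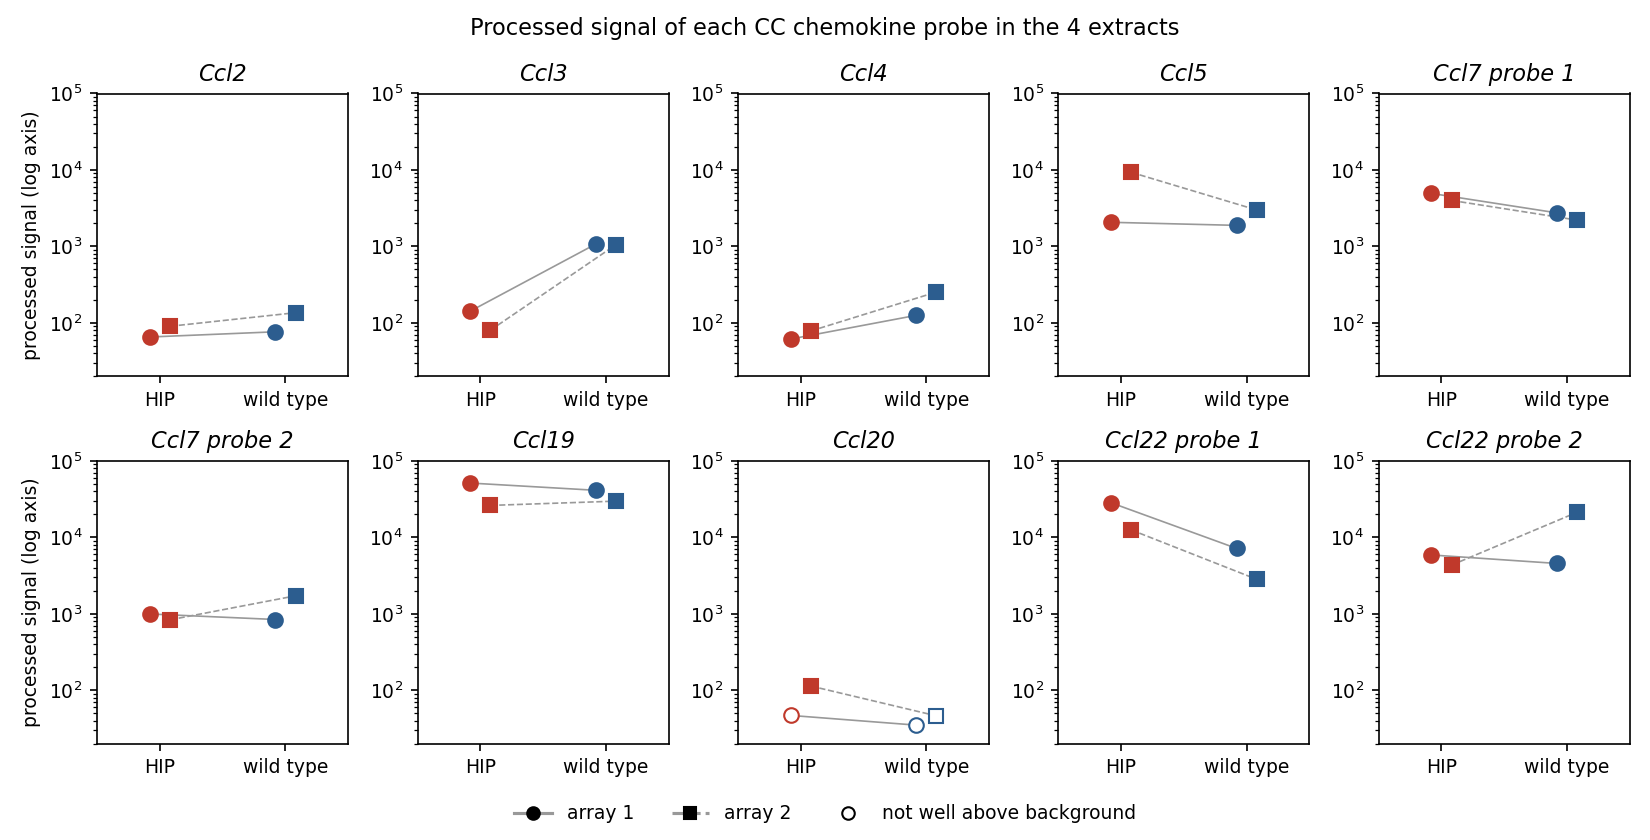
Processed signal (log axis, arbitrary scanner units) of the 10 probes of the 8 genes, with HIP extracts on the left and wild-type extracts on the right of each panel, circles for array 1 and squares for array 2, and open symbols for spots not well above background. Both HIP points lie below both wild-type points for Ccl3 and Ccl4, both lie above for Ccl7 probe 1, Ccl22 probe 1 and Ccl20, and Ccl20 was well above background in HIP 2 alone.

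Ccl2, which encodes the monocyte attractant also called MCP-1, was dim in every extract. The 10 spots of its probe gave processed signals of 29.4 to 84.5 with a median of 69.4 in HIP 1 and of 75.6 to 116 with a median of 91.3 in HIP 2. In wild type 1 they ran from 39.1 to 148 with a median of 64.9, and in wild type 2 from 80.4 to 182 with a median of 145. These ranges include 1 spot marked as an outlier in each of HIP 2, wild type 1 and wild type 2. The spots of HIP 1 and wild type 1 covered much the same range, and those of wild type 2 lay mostly above those of HIP 2. Well above background were 8 spots in HIP 1, 10 in HIP 2, 9 in wild type 1 and 8 in wild type 2. The mean spot was 1.72 and 1.94 times its local background in HIP 1 and HIP 2 and 1.86 and 1.74 times in wild type 1 and wild type 2. The brightest negative control spots reached 1.52 and 1.51 times in HIP 1 and HIP 2 and 1.77 and 1.69 times in wild type 1 and wild type 2, so the Ccl2 level was close to the upper end of the controls.

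These 10 spots show how far copies of 1 dim sequence spread within an array, with the spots marked as outliers included. The scanner's log2 ratio of a spot ran from -1.20 to 0.40 on array 1, with an SD over spots of 0.54 and 5 of 10 spots above 0. On array 2 it ran from -1.08 to 0.06, with an SD of 0.38 and 1 of 10 above 0. With the outliers dropped and the other spots averaged after normexp and loess, the ratios were -0.02 on array 1 and -0.08 on array 2. Their mean was -0.05 ± 0.04 (SD, n = 2 arrays; limma adjusted p = 0.999). From the scanner's processed ratios the mean was -0.34, with median centring it was -0.54, and without normalization it was 0.45, with the median of all probes shifted up as given above.

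**Figure D2:**
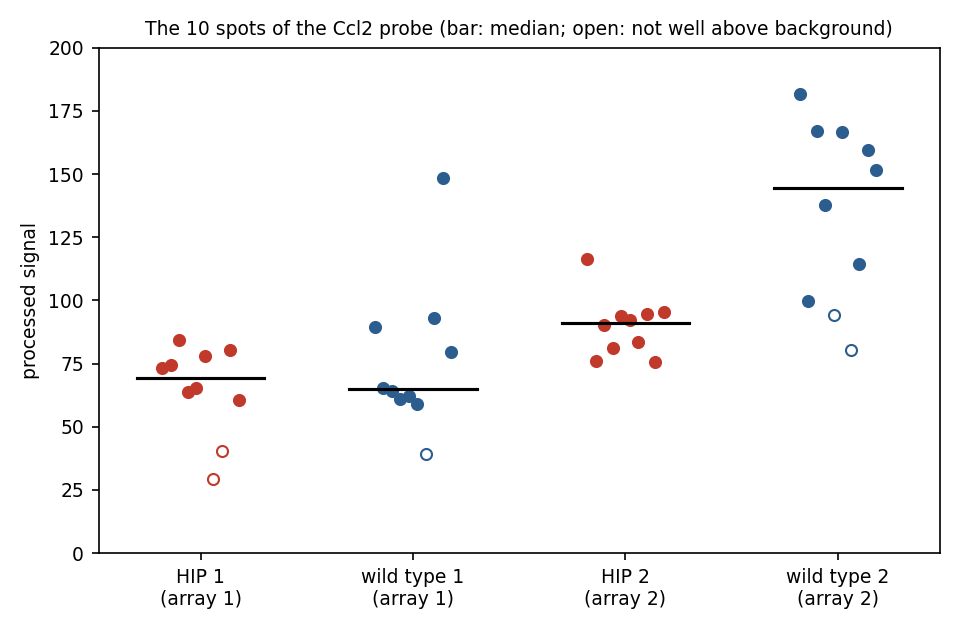
Processed signal of the 10 spots of the Ccl2 probe in each extract, with bars at the medians (69.4 and 64.9 in HIP 1 and wild type 1, 91.3 and 145 in HIP 2 and wild type 2) and open symbols for spots not well above background. The extracts of array 1 overlap over most of their range, and wild type 2 lies mostly above HIP 2. Spots marked as outliers are included.

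Ccl7, the second ligand of Ccr2 in the set, lies next to Ccl2 on chromosome 10 and had 2 probes whose sequences share 29 of their 60 bases by the array's own positions. Probe 1 gave processed signals of 4926 and 3987 in HIP 1 and HIP 2, against 2740 and 2205 in wild type 1 and wild type 2. Both HIP signals stood above both wild-type signals, and the ratios of 0.77 and 0.85 had a mean of 0.81 ± 0.06 (SD, n = 2 arrays; limma adjusted p = 0.942). Probe 2, which begins further along the transcript, gave 996 and 835 in HIP 1 and HIP 2, against 843 and 1720 in wild type 1 and wild type 2. Its groups overlapped, with ratios of 0.08 and -0.66 and a mean of -0.29 ± 0.53 (SD, n = 2 arrays; limma adjusted p = 0.980). On array 2 the overlapping probes thus pointed in opposite directions. The authors' deposited table holds 1 entry for the gene, with log2 ratios of 0.53 and -0.06.

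Ccl3 encodes the macrophage inflammatory protein that binds Ccr1. Its processed signals were 142 and 79.8 in HIP 1 and HIP 2, against 1072 and 1049 in wild type 1 and wild type 2. The wild-type signals were close to each other, both HIP signals lay far below them, and the groups did not overlap. The ratios of -1.93 and -1.84 had a mean of -1.89 ± 0.06 (SD, n = 2 arrays; limma adjusted p = 0.942), which is 3.70-fold lower in HIP. Of all probes tested, 0.808% had both ratios at least as far below 0 as the nearer of these. The HIP spots were well above background by the software's mark but stood at only 1.97 and 2.02 times their local background in HIP 1 and HIP 2, against 9.30 and 6.80 times in wild type 1 and wild type 2. The scanner's processed ratios were -2.92 and -3.72, with a mean of -3.32, and without normalization, where all probes shift up, the mean was -0.94.

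Ccl4 encodes a close relative of Ccl3 that attracts macrophages and T cells, and it lies next to Ccl3 on chromosome 10. Its signals were 61.2 and 78.1 in HIP 1 and HIP 2, against 125 and 252 in wild type 1 and wild type 2. Both HIP signals were below both wild-type signals, and the groups of normalized levels did not overlap either. All 4 spots were dim, at 1.75 and 1.78 times local background in HIP 1 and HIP 2 and at 2.48 and 2.60 times in wild type 1 and wild type 2. The ratios were -0.29 and -0.54, a mean of -0.42 ± 0.18 (SD, n = 2 arrays; limma adjusted p = 0.943), and from the scanner's processed ratios the mean was -1.36. With median centring it was -0.83, and without normalization, where all probes shift up, 0.16.

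Ccl5 encodes RANTES, a ligand of Ccr1 and Ccr3 made largely by T cells and macrophages. Its signals were 2063 and 9307 in HIP 1 and HIP 2, against 1881 and 2992 in wild type 1 and wild type 2. HIP 2 stood apart from the other 3 extracts, and HIP 1 lay between the wild-type extracts. The ratio was 0.06 on array 1 and 1.58 on array 2, a mean of 0.82 ± 1.08 (SD, n = 2 arrays; limma adjusted p = 0.942), so the spread between the arrays exceeded the mean.

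**Figure D3:**
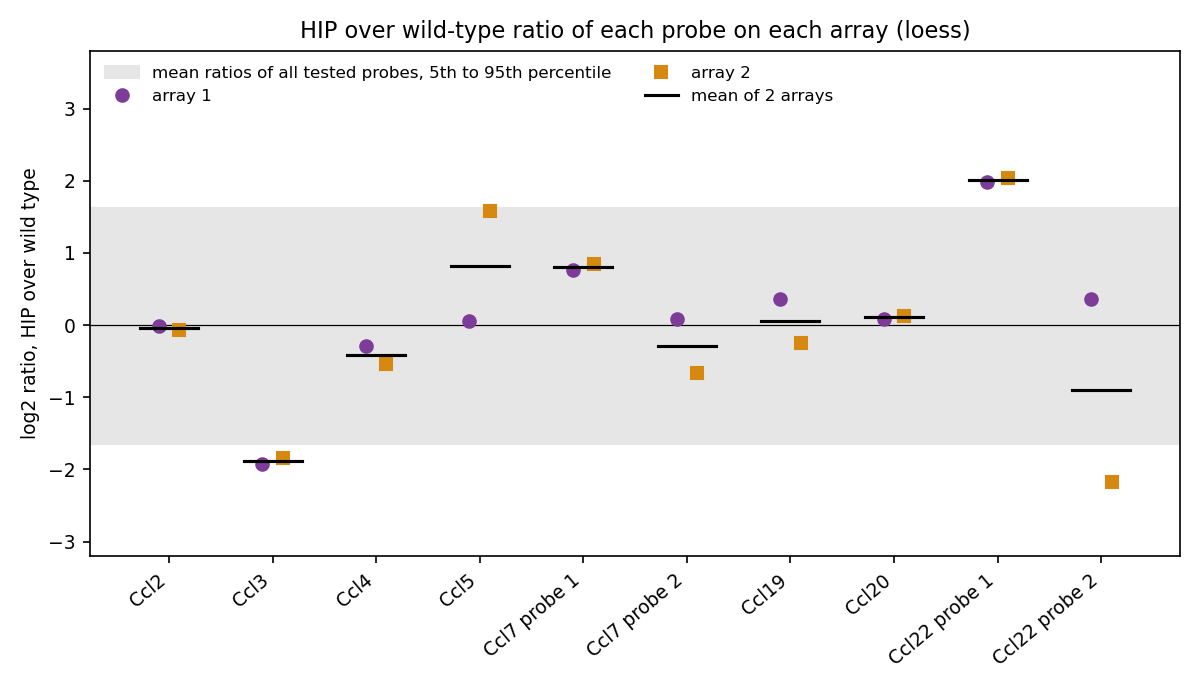
Log2 ratio of HIP over wild type (normexp and loess) of each probe on array 1 (circles) and array 2 (squares), with a bar at the mean and a grey band from -1.64 to 1.63, the 5th to 95th percentile of mean ratios of all tested probes. The bars of Ccl3 (-1.89) and Ccl22 probe 1 (2.01) lie outside the band with both arrays close together, and the arrays lie far apart for Ccl5 and Ccl22 probe 2.

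Ccl19, the ligand that leads dendritic cells and T cells to lymphoid tissue, was bright in all extracts, at 109 to 453 times local background. Its signals were 51440 and 26227 in HIP 1 and HIP 2, against 41363 and 29826 in wild type 1 and wild type 2. The wild-type signals lay between the HIP signals. The ratios of 0.36 and -0.25 had a mean of 0.06 ± 0.43 (SD, n = 2 arrays; limma adjusted p = 0.999), and the mean was 0.77 with median centring.

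Ccl20, which attracts Ccr6-bearing T cells, B cells and dendritic cells, was the member that failed the filter. Its signals were 46.8 and 114 in HIP 1 and HIP 2, against 35.0 and 46.3 in wild type 1 and wild type 2. Of these 4 spots, that of HIP 2 was well above background, at 1.74 times its local background, and the spots of HIP 1, wild type 1 and wild type 2 were not. Neither wild-type extract thus gives more than a bound, and no fold is given. Fitted among all probes without the filter, its mean ratio was 0.11 ± 0.04 (SD, n = 2 arrays; limma adjusted p = 0.996). The mean was 0.86 from the scanner's processed ratios and -0.46 with median centring, so its direction was not settled.

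Ccl22 encodes macrophage-derived chemokine, a product of macrophages and dendritic cells that attracts Ccr4-bearing T cells. Probe 1 gave signals of 28414 and 12544 in HIP 1 and HIP 2, against 7183 and 2833 in wild type 1 and wild type 2. Both HIP signals stood above both wild-type signals, and the ratios of 1.98 and 2.04 had a mean of 2.01 ± 0.05 (SD, n = 2 arrays; limma adjusted p = 0.942). Of all probes tested, 0.618% had both ratios at least as far above 0 as the nearer of these. Probe 2, which lies 1136 bases further along by the array's positions, gave 5893 and 4342 in HIP 1 and HIP 2, against 4564 and 21318 in wild type 1 and wild type 2. Wild type 2 stood apart and HIP 2 was the lowest, and the ratios of 0.36 and -2.17 had a mean of -0.91 ± 1.78 (SD, n = 2 arrays; limma adjusted p = 0.944).

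Both Ccl22 probes were 9.25 times local background or brighter in every extract, so neither reading rests on dim spots. On array 2 the probes were -2.17 and 2.04, on opposite sides of 0. The authors' deposited table holds 1 entry for the gene, with log2 ratios of 0.96 and 0.00, and how the 2 probes were combined in it is not known. The higher level of Ccl22 in HIP therefore rests on 1 probe of 2.

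Over the 9 tested probes, both normalized HIP levels lay above both wild-type levels for 2, Ccl7 probe 1 and Ccl22 probe 1, against 15.8% of all probes. Both lay below for 2, Ccl3 and Ccl4, against 15.1% of all probes. Of the genes other than members, the one closest to each probe over its 4 normalized log2 levels was taken among 17186 probes with a gene symbol. For Ccl3 it was Fam136a, at a distance of 0.55 log2 units and with ratios of -1.39 and -1.37 on arrays 1 and 2. For Ccl22 probe 1 it was Hoxb9, at 0.73 and with ratios of 2.26 and 2.31. For Ccl22 probe 2 it was Cdhr2 at a distance of 0.18, for Ccl7 probe 1 Usp6nl at 0.27 and for Ccl7 probe 2 Clba1 at 0.18. For Ccl2 it was Klf10 at 0.04, for Ccl4 Cd81 at 0.09, for Ccl5 Atp6v0a1 at 0.34 and for Ccl19 Jmjd8 at 0.61. Klf10 (6.27 to 6.49) and Cd81 (6.28 to 6.92) were dim like Ccl2 and Ccl4. The lowest levels of probes well above background were 5.607 to 6.165 over the extracts, so these short distances lie between probes near that floor. With 4 extracts, such likeness is a description only.

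The receptors were read next, since each ligand acts through them. Of 14 CC chemokine receptors and decoy receptors listed, 12 were tested (Ackr1 and Ackr4 were not matched to a probe). None of the 12 passed the test. On both arrays 3 were higher (26.9% of all probes) and 3 lower (22.9%) in HIP, and for 6 the arrays pointed different ways (50.2%). At least 2-fold on both arrays, 0 were higher or lower and 2, Ccr4 and Ccr8, had opposite directions (5.43% of all probes, and 0 of the 9 member probes). The median of the mean ratios was -0.12, against 0.02 for all probes, while the medians of the single arrays were 0.05 and 0.03, and that from the scanner's processed ratios was 0.28. Ccr1, a receptor of Ccl3 and Ccl5, had 280 and 47.3 in HIP 1 and HIP 2, against 538 and 1280 in wild type 1 and wild type 2, with ratios of -0.69 and -2.10.

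Ccr2, the receptor of Ccl2 and Ccl7, had signals of 6520 and 5082 in HIP 1 and HIP 2, against 14352 and 7746 in wild type 1 and wild type 2, and ratios of -1.07 and -0.52. Ccr3, a receptor of Ccl5 and Ccl7, was dim, with 119 and 78.3 in HIP 1 and HIP 2, against 95.3 and 20.3 in wild type 1 and wild type 2, and ratios of 0.17 and 0.22. It was well above background in 1 of the 2 wild-type extracts, and its mean of 0.20 was -0.39 with median centring, so its direction was not settled. The HIP signals of Ccr1 and Ccr2 thus lay below both wild-type signals, without passing the test (limma adjusted p = 0.942 for each). Of all probes tested, 15.1% had both normalized HIP levels below both wild-type levels. Ccr1 was dim in HIP 2, at 47.3. With median centring the mean ratio was -1.46 for Ccr1 and -0.202 for Ccr2, against -1.394 and -0.795 as reported.

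The receptors of Ccl19, Ccl20 and Ccl22 differed widely between the arrays. Ccr7, the receptor of Ccl19, had 14474 and 260 in HIP 1 and HIP 2, against 1442 and 315 in wild type 1 and wild type 2, with ratios of 3.04 and -0.07. Ccr6, the receptor of Ccl20, had 170 and 104 in HIP 1 and HIP 2, against 6356 and 145 in wild type 1 and wild type 2, with ratios of -4.14 and -0.08. One extract of array 1 thus set each of these ratios, HIP 1 for Ccr7 and wild type 1 for Ccr6. Ccr4, the receptor of Ccl22, had 254 and 3589 in HIP 1 and HIP 2, against 4764 and 158 in wild type 1 and wild type 2, and its ratios of -3.38 and 2.68 had opposite signs. Among the brightest receptors, the scavenger Ackr2 was 0.53 and -2.78 and Ccr10 was 0.18 and -1.67.

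**Figure D4:**
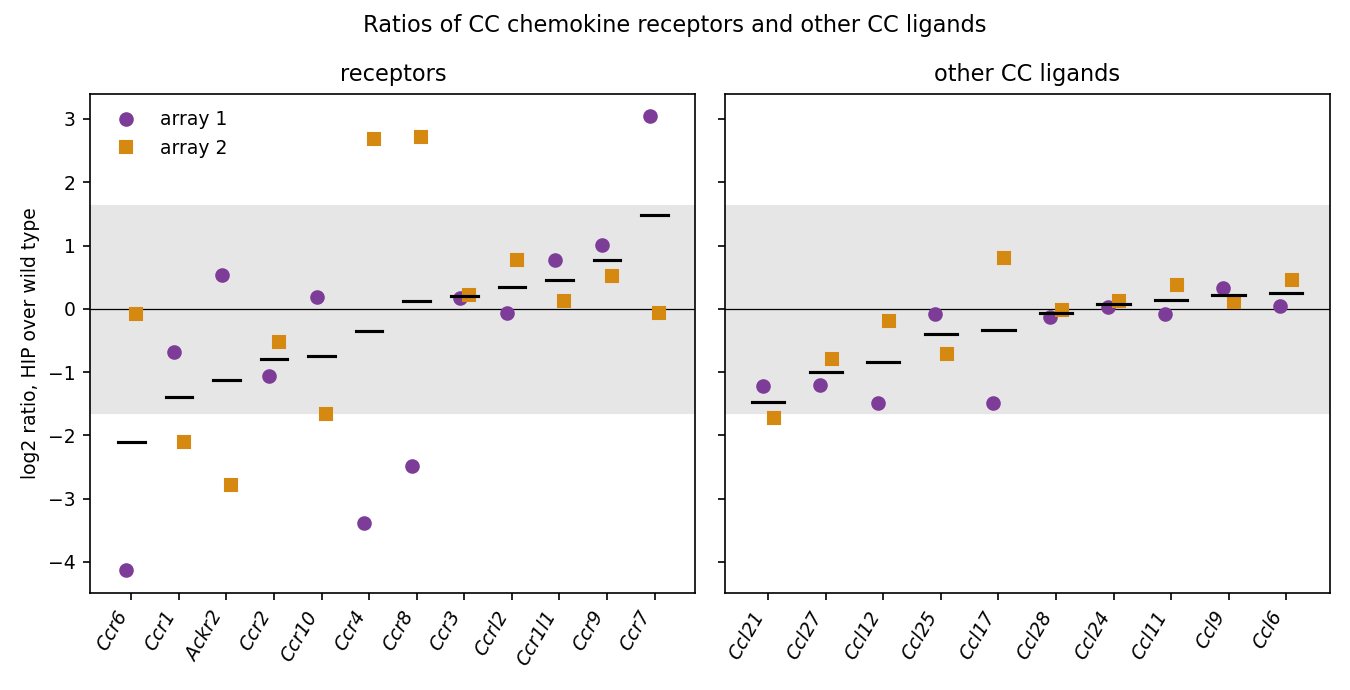
Log2 ratio of HIP over wild type of the 12 tested receptors (left) and the 10 tested other CC ligands (right) on array 1 (circles) and array 2 (squares), with bars at the means and a grey band from -1.64 to 1.63, the 5th to 95th percentile of mean ratios of all tested probes. No receptor has both arrays below or both above the band, and the arrays lie on opposite sides of 0 for 6 receptors, by at least 2-fold on both arrays for Ccr4 and Ccr8.

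Of 12 other CC ligands listed, 10 were tested, and Ccl1 and Ccl26 were not matched to a probe. None passed the test. On both arrays 3 were higher (26.9% of all probes) and 5 lower (22.9%) in HIP, and the arrays pointed different ways for 2 (50.2%). The median ratio was -0.21, or 0.08 with median centring. Ccl21, the other ligand of Ccr7, had signals of 4756 and 7137 in HIP 1 and HIP 2, against 11510 and 25199 in wild type 1 and wild type 2, and ratios of -1.21 and -1.73. Ccl27, which attracts Ccr10-bearing T cells to skin, was -1.20 and -0.80. Ccl12, a monocyte attractant known from mouse as a ligand of Ccr2, was -1.48 and -0.19. Ccl17, which shares Ccr4 with Ccl22, was -1.48 and 0.81, where Ccl22 was 1.98 and 2.04 by probe 1 and 0.36 and -2.17 by probe 2. The sign of Ccl17 thus differed from both Ccl22 probes on array 1, and on array 2 from probe 2 alone.

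Of 25 cytokines, receptors and NF-kB pathway genes that act upstream of CC chemokines, 18 were tested and none passed. Il6, Myd88, Tlr4 and Chuk were on the array but not tested, and Ticam1, Relb and Tnfaip3 were not matched to a probe. On both arrays 5 were higher (26.9% of all probes) and 7 lower (22.9%) in HIP, and the arrays pointed different ways for 6 (50.2%). The median ratio was 0.12, or -0.03 from the scanner's processed ratios. Il1b, an inducer of Ccl2 and Ccl20, was -1.35 and -2.22, with 0.48 and -0.62 from its second probe. Nfkb1, an NF-kB subunit, was 0.26 and 1.68, with 2.21 and 0.08 from its second probe. Irak1, a kinase of the interleukin-1 receptor pathway, was 1.56 and 0.87. The brightest of the list were the NF-kB inhibitor Nfkbia (-1.08 and 0.79, with -1.20 and -0.20 from its second probe), the kinase regulator Ikbkg (-0.48 and -0.37) and the interferon-response factor Irf1 (0.59 and -0.34). The mean of Ikbkg was -0.42 as reported and 0.15 with median centring, so its direction was not settled.

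Most tested markers of leukocytes, which both make and follow these ligands, were well above background in all extracts. Most of their summed signals were uneven across the extracts. Of 10 monocyte and macrophage markers, 9 were tested and were well above background in all extracts, and their summed processed signal was 31873 and 39436 in HIP 1 and HIP 2, against 22391 and 58903 in wild type 1 and wild type 2. For 5 tested T cell markers of 7 the sums were 5226 and 58816 in HIP 1 and HIP 2, against 40401 and 32274 in wild type 1 and wild type 2. For 5 tested dendritic cell markers of 6 they were 17050 and 33166 in HIP 1 and HIP 2, against 19574 and 2711 in wild type 1 and wild type 2. Of these 5, 3 were well above background in all extracts. Ccr7, given above as the receptor of Ccl19, is in the dendritic cell list and made up 14474 of its HIP 1 sum. The groups overlapped for these 3 lists, with median ratios of 0.03 for monocytes and macrophages, 0.07 for T cells and 0.18 for dendritic cells. HIP 2, in which Ccl5 was highest, also had the highest T cell sum. HIP 1 had the lowest T cell sum, but its Ccl5 signal of 2063 was above the 1881 of wild type 1. The part of these cells in the ratios was not tested. The 3 tested B cell markers of 4 had nearly equal sums, 2332 and 1962 in HIP 1 and HIP 2, against 2138 and 2002 in wild type 1 and wild type 2. For 4 tested neutrophil markers of 5 the sums were 3307 and 3608 in HIP 1 and HIP 2, against 2457 and 4436 in wild type 1 and wild type 2. Of these 4, 3 were well above background in all extracts. The 3 pan-leukocyte markers summed to 180457 and 50726 in HIP 1 and HIP 2, against 46049 and 42973 in wild type 1 and wild type 2. Both HIP sums lay above both wild-type sums, with HIP 1 far above the others. By ratio 2 of the 3 were higher in HIP on both arrays and 1 lower, with a median of 0.94. Fewer cells of a type and less RNA per cell cannot be told apart in such extracts. The 6 islet endocrine markers summed to 82440 and 83581 in HIP 1 and HIP 2, against 142533 and 152576 in wild type 1 and wild type 2, but by ratio 3 of the 6 were higher in HIP on both arrays and 2 lower, with a median of 0.21. Of these 6, 4 were well above background in all extracts. The 5 tested acinar markers of 6 summed to 15422 and 66948 in HIP 1 and HIP 2, against 20618 and 28276 in wild type 1 and wild type 2, and 3 were higher in HIP on both arrays and 1 lower, with a median ratio of 0.97.

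**Figure D5:**
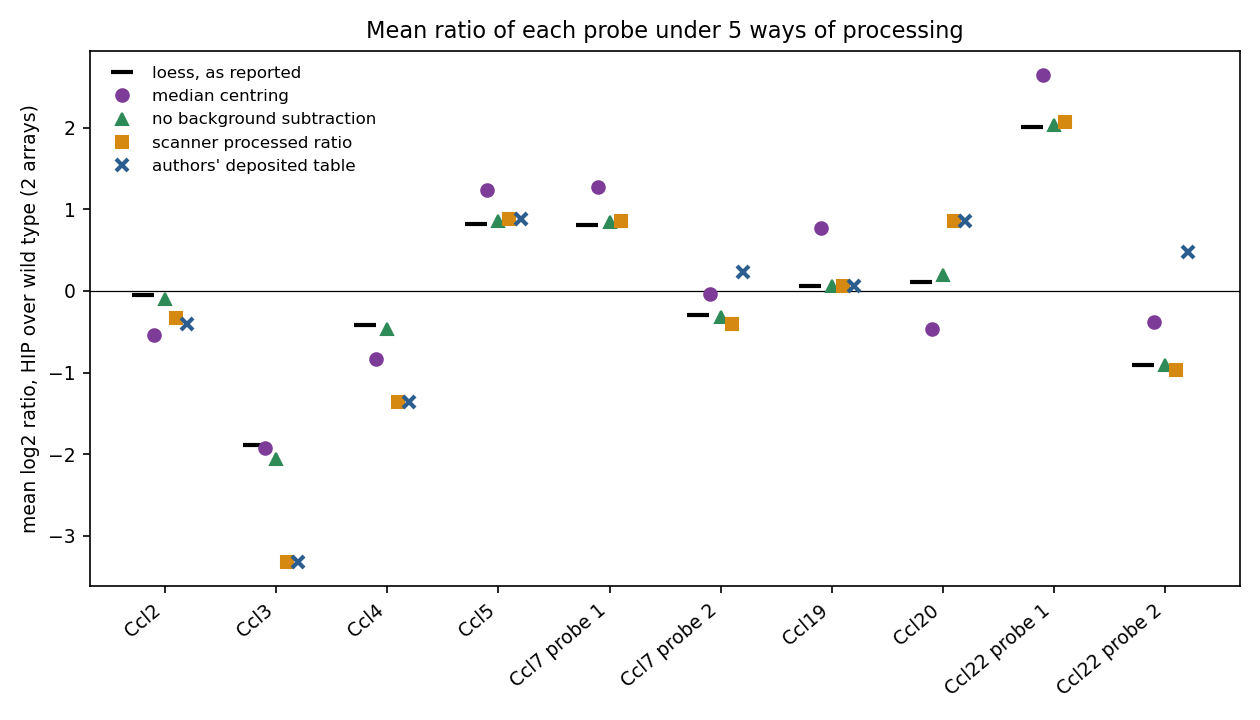
Mean log2 ratio of HIP over wild type of each probe (2 arrays) with normexp and loess as reported (bars), with median centring, without background subtraction, from the scanner's processed ratio, and in the authors' deposited table, which has 1 entry each for Ccl7 and Ccl22, drawn at probe 2. Under these 5 settings Ccl3 lies between -3.32 and -1.89. Ccl22 probe 1, which has no value of its own in the deposited table, lies between 2.01 and 2.64 under the others, and the table's Ccl22 entry is 0.48. Without normalization, not drawn, Ccl3 and Ccl22 probe 1 were -0.94 and 3.63. Ccl20, and the second probes of Ccl7 and Ccl22 once the table's gene entries are counted, lie on both sides of 0.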

How the data were processed

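Per the labels, mRNA was isolated with magnetic beads, its cDNA amplified by global PCR and labelled. Per the file headers, the scanner software was Agilent Feature Extraction 9.5.1.1. Its output, deposited by the authors, gives per spot and dye, the mean spot intensity, the median local background and a processed intensity, and the log10 ratio of processed Cy5 over Cy3. The authors' deposited table holds log10 ratios, of which 89.5% of 36734 matched entries equalled the scanner's within 2e-05 on both arrays, so its scale and direction (Cy5 over Cy3) are known and no centring was added (medians 0.01 and 0.00). The arrays shared 1 slide and 1 scan, which left no batch to compare.

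In R 4.3.3 with limma 3.58.1, normexp (offset 50) and loess within arrays (controls at weight 0) gave log2 ratios from the deposited intensities. Control and outlier spots (1 spot of Ccl2 in each of HIP 2, wild type 1 and wild type 2) were dropped and spots of a probe averaged. Probes with either dye well above background on each array (33652, 82.1%; for several spots, at least 0.5 of them) were tested against 0 (lmFit, eBayes, two-sided, 1 residual degree of freedom), with Benjamini-Hochberg adjustment over all. The fit was also run on simulated data as a check of the code. The outcome is not given here, so nothing is claimed on what size of change the test could find in these arrays. One listed receptor is not reported here and is left out of its list. For lists, a gene's brightest tested probe stood for it. Array gene names were updated through a RefSeq table of GRCr8; 10735 probes matched by accession and 9231 by symbol or synonym. No genome build is stated for the probes' positions, so none is printed. Named genes were all member probes, receptors of members, the 3 largest ratios with 1 sign and the 3 brightest genes of each list, and the nearest gene by Euclidean distance. Members and lists were chosen with earlier results of these data known. With 2 arrays, precision is limited by their number.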

Additional observations from a re-analysis of the deposited data

How the results depend on the processing

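No member probe passed the test under any of the 8 settings in which members were tested, with limma adjusted p no lower than 0.290. Counts of called probes were 0 in each direction under all of those settings and with trended and robust priors (988 and 990 probes at an unadjusted p under 0.05), with 1 probe per gene (953) and with the 4 channels as separate samples (1424), against 1099 as reported. Without one array no test is possible, and a slide block was not run because both arrays shared a slide. Each ratio pairs a HIP and a wild-type extract on 1 array, so the test against 0 is the paired form. The fit of the 4 separate channels kept the estimated correlation between the dyes of a spot, 0.068, so a fully unpaired test was not run. Probes at least 2-fold higher and lower on both arrays numbered 864 and 820 as reported (51.3% higher), 1720 and 637 with median centring (73.0% higher), 1927 and 1576 from the scanner's processed ratio, 1631 and 1315 in the authors' deposited table, and 9098 and 180 without normalization, which puts the median of all probes at 0.78 and 1.19 on arrays 1 and 2. Without normalization, and so before that shift is taken off, the means of Ccl2 (0.45), Ccl4 (0.16), Ccl7 probe 2 (0.95) and Ccl22 probe 2 (0.61) took the other sign, and Ccl3 was -0.94 and Ccl22 probe 1 was 3.63. In the authors' deposited table the gene entries read 0.23 for Ccl7 and 0.48 for Ccl22, opposite to their second probes. Ccl20 was -0.46 with median centring, 0.52 without normalization, 0.20 without background subtraction and 0.86 from the processed ratio and the deposited table. On single arrays Ccl2 ran from -0.08 to -0.02, Ccl3 from -1.93 to -1.84, Ccl4 from -0.54 to -0.29, Ccl5 from 0.06 to 1.58, Ccl7 probe 1 from 0.77 to 0.85, Ccl7 probe 2 from -0.66 to 0.081, Ccl19 from -0.25 to 0.36, Ccl20 from 0.08 to 0.13, Ccl22 probe 1 from 1.98 to 2.04 and Ccl22 probe 2 from -2.17 to 0.36. The receptor median, -0.12 as reported, was 0.87 without normalization, -0.017 without background subtraction, 0.28 from the processed ratio and in the deposited table and -0.35 when both dyes had to be above background on each array, and from 0.026 to 0.051 on single arrays. The median of other ligands was 0.084, 1.07 and -0.34 with median centring, without normalization and with that filter, and from -0.11 to 0.044 on single arrays. The inducer median was 0.20 and 1.19 with median centring and without normalization, -0.032 from the processed ratio and the deposited table, and from -0.16 to -0.052 on single arrays. The cause of these moves was not tested. Dim spots limit Ccl2, Ccl4, Ccl20 and the HIP spots of Ccl3.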

Other observations

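One further probe carries the name of the gene for MCP-1 in its description but an accession in place of the gene name, so it was not taken as Ccl2. Per the array's annotation its sequence comes from the 5′ flank of that gene. Its processed signal was 9144 and 134 in HIP 1 and HIP 2, against 150 and 530 in wild type 1 and wild type 2, with log2 ratios of 4.23 and -0.68 on arrays 1 and 2 (limma adjusted p = 0.942). HIP 1 stood far above the other 3 extracts, whereas the Ccl2 probe itself gave a ratio of -0.02 on that array.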
